A study of Mus musculus with 6 samples.

Results

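The Ms4a family encodes small membrane proteins that cross the membrane several times, of which the B cell antigen CD20 (Ms4a1) is the best known. Different members are used by different blood cells: Ms4a1 by B cells, Ms4a2 (the beta chain of the high-affinity IgE receptor) by mast cells, Ms4a3 by granulocyte and monocyte progenitors, and several Ms4a4, Ms4a6 and Ms4a7 genes by macrophages. Some members sit beside signalling receptors in the membrane and alter their output. The 8 genes described here (Ms4a4a, Ms4a4b, Ms4a4c, Ms4a6b, Ms4a6c, Ms4a6d, Ms4a7 and Ms4a8a) were taken by gene symbol from the 55291 genes of the deposited table, which holds 21 Ms4a genes.

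Transcripts were measured by poly(A) RNA sequencing in BMDM, the macrophages that mouse bone marrow yields in culture. There were 2 groups of 3 libraries, BMDM treated with apoptotic cells (AC) and untreated BMDM. The sources used here give neither the origin, dose and timing of the AC nor the strain, sex and age of the mice. They also do not say whether replicates are separate cultures or mice, so the p-values reflect a spread among libraries that could be technical. Levels are in TPM, that is, reads per exon base set to a sum of 1000000 in every library.

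All 12 macrophage markers examined, among them Csf1r, Adgre1 and C1qa, were present in both groups. Depth was 21001986 to 25280495 recovered reads in AC libraries and 19330350 to 32649089 in untreated ones. Several libraries stood apart. The median-of-ratios scaling factor, which follows the median gene, was 0.8607 in AC replicate 1, against 0.9913 to 1.0742 in the other 5. Many genes thus read low in AC replicate 1 on the TPM scale, Ms4a genes or not. The small RNA gene Gm23935 reached 73936 TPM in AC replicate 3, against 9648 to 13452 TPM in the other 5. In untreated replicate 1 the lysozyme gene Lyz2 had 83.7 TPM, against 9270.5 to 12451 TPM in the other 5. Transcripts of 17 placental markers summed to 33.8 and 159 TPM in AC replicates 1 and 2 and to 17.9 and 37.6 TPM in untreated replicates 1 and 2, and were at 0 in replicate 3 of both groups.

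Of the 19 Ms4a genes placed on chromosome 19 (mm10, GENCODE M21), those used by these macrophages stood side by side. A stretch of 304 kb from Ms4a14 to Ms4a6d (chr19:11301249-11604849) holds 9 Ms4a genes, and 7 of them had a mean of at least 100 TPM over the 6 libraries. Its ends are the outermost genes at that level, so by construction no Ms4a gene outside it could reach 100 TPM. The lowest of the 7 was Ms4a14 at 165 TPM. The exceptions inside the stretch were Ms4a4b (2.05 TPM) and Ms4a4d (0.376 TPM). None of the 10 genes outside it reached a mean of 1 TPM, and 0.976 TPM for Ms4a8a was the highest among them. The lineage genes were close to 0: Ms4a1 averaged 0.288 TPM in AC and 0.362 TPM in untreated libraries, and Ms4a3 averaged 0.116 and 0.192 TPM in AC and untreated libraries.

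**Figure D1:**
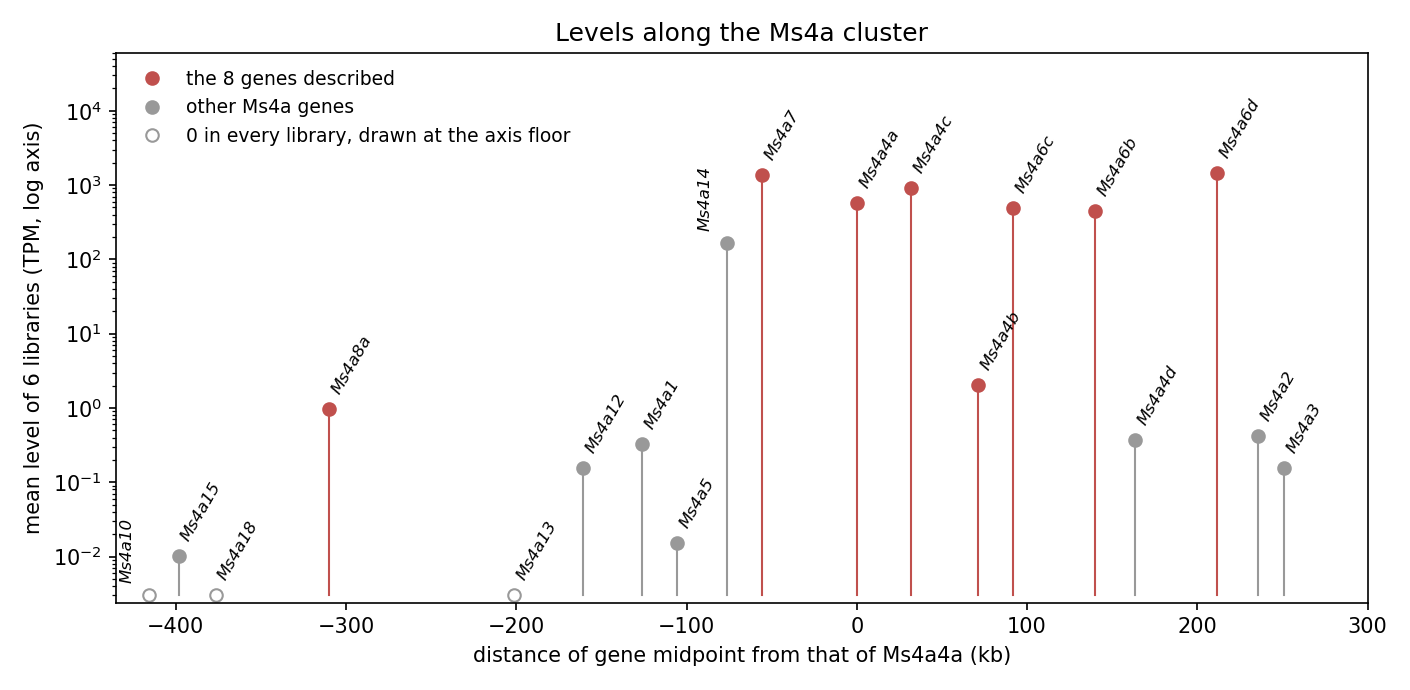
Mean TPM of the 6 libraries (y axis, log scale) for the 19 placed Ms4a genes against the distance of each gene's midpoint from that of Ms4a4a in kb (x axis); open circles are genes at 0 in every library. The high genes lie together from Ms4a14 (165 TPM) to Ms4a6d (1459 TPM), with Ms4a4b (2.05 TPM) and Ms4a4d (0.376 TPM) low between them.

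The abundant members in the stretch, beside Ms4a4c, are Ms4a7 (chr19:11321039-11336146, minus strand), Ms4a4a (chr19:11375523-11392790, plus), Ms4a6c (chr19:11469366-11482192, plus), Ms4a6b (chr19:11516512-11531256, plus) and Ms4a6d (chr19:11586604-11604849, minus). Ms4a8a lies outside it (chr19:11067471-11081102, minus). The paralogs Ms4a4b and Ms4a4c differed widely in level. Their coding sequences, each of 681 bases, were 91.8% identical by global alignment, the highest value among the 28 pairs of members. Ms4a4c is at chr19:11404770-11427246 and Ms4a4b at chr19:11443553-11467055, both on the plus strand. The bases before their RefSeq start sites (GRCm38.p6, plus strand) are shown because they too are alike. Capitals mark the longest run that the pair shares, of 20 bases, and the Ms4a4b window ends before its first GENCODE exon. The Ms4a4c window lies inside its GENCODE gene and holds no annotated exon base.
Ms4a4c (chr19:11407411-11407660): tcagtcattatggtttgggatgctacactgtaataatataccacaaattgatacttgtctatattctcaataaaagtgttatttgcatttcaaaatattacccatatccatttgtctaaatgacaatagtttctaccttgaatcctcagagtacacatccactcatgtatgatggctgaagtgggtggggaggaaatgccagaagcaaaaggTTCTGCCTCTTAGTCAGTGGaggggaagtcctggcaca
Ms4a4b (chr19:11443308-11443552): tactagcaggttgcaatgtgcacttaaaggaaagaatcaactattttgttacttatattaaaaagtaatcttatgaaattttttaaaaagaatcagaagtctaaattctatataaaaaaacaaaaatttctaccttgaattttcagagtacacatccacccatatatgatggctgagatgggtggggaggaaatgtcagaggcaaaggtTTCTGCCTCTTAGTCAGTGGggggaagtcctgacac
Over 250 bases before the start, 70.8% of the aligned columns were identical between the 2 genes. The windows of other pairs of members were 45.5 to 53% identical. No other pair of member windows shared a run of over 9 bases except Ms4a6b and Ms4a6c, which shared 48 bases, beginning 118 bases before the Ms4a6b start and 49 bases before the Ms4a6c start. In both of these windows the shared run ends past the first base that GENCODE annotates as exon.

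Ms4a4c stood at 1014, 895 and 668 TPM in AC replicates 1, 2 and 3 and at 927, 1091 and 952 TPM in untreated replicates 1, 2 and 3. Ms4a4b, best known from mouse T cells, stood at 1.96, 2.59 and 1.67 TPM in AC and at 2.0, 2.3 and 1.8 TPM in untreated replicates 1, 2 and 3. The ratio of Ms4a4c to Ms4a4b was 517, 346 and 399.7 in AC libraries and 464, 474 and 529 in untreated ones. With the length of the transcript of the longest coding part in place of merged exons it was 190.3 to 284 in AC and 255 to 291 in untreated libraries. The Ms4a4b level rests on 101 to 219 reads per library, and the sources used here do not say how reads fitting both genes were assigned. Words of 50 bases found in both genes' transcripts made up 7.73% of those of Ms4a4c and 1.53% of those of Ms4a4b, so the level of Ms4a4b is uncertain. Of 16 T cell and thymocyte markers, 15 were under 1 TPM in every library; the other was Cd4, at up to 16.8 TPM.

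Windows of 250 bases before RefSeq starts were available for 7 of the 8 genes (8 windows, with 2 for Ms4a7), from a table that holds no Ms4a6d entry. They were searched on both strands for 4 motifs. The interferon-stimulated response element type, the PU.1 type GAGGAAGT and the CREB type TGACGTCA each had 0 matches in the 8 windows, and occurred in 2.98%, 2.44% and 1.55% of 32851 mouse promoter windows of the same length. The AP-1 type TGACTCA occurred in 4.46% of them and in 1 of the 8, that of Ms4a8a, 244 bases before the start. A match here is one of letters alone.

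In order of mean level over the 6 libraries the genes ran Ms4a6d (1459 TPM), Ms4a7 (1367), Ms4a4c (924), Ms4a4a (572), Ms4a6c (495), Ms4a6b (444), Ms4a4b (2.05) and Ms4a8a (0.976). The 6 abundant genes ranked between place 76 (Ms4a6d) and place 320 (Ms4a6b) of 12603 tested genes. Only some steps of this order exceeded the spread. Ms4a7 was above Ms4a4c in 6 of 6 libraries with no overlap of ranges, and so were Ms4a6b above Ms4a4b and Ms4a4b above Ms4a8a. Ms4a6d was above Ms4a7 in 3 of 6 libraries, Ms4a4c above Ms4a4a in 5, Ms4a4a above Ms4a6c in 4 and Ms4a6c above Ms4a6b in 5, with overlapping ranges each time. The order also depends on the length that reads are divided by. With the transcript of the longest coding part in place of all exons merged, Ms4a7 came first at 3863 TPM and Ms4a6d second at 1785 TPM, and Ms4a6b (742 TPM) passed Ms4a4a (572 TPM) and Ms4a6c (551 TPM).

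**Figure D2:**
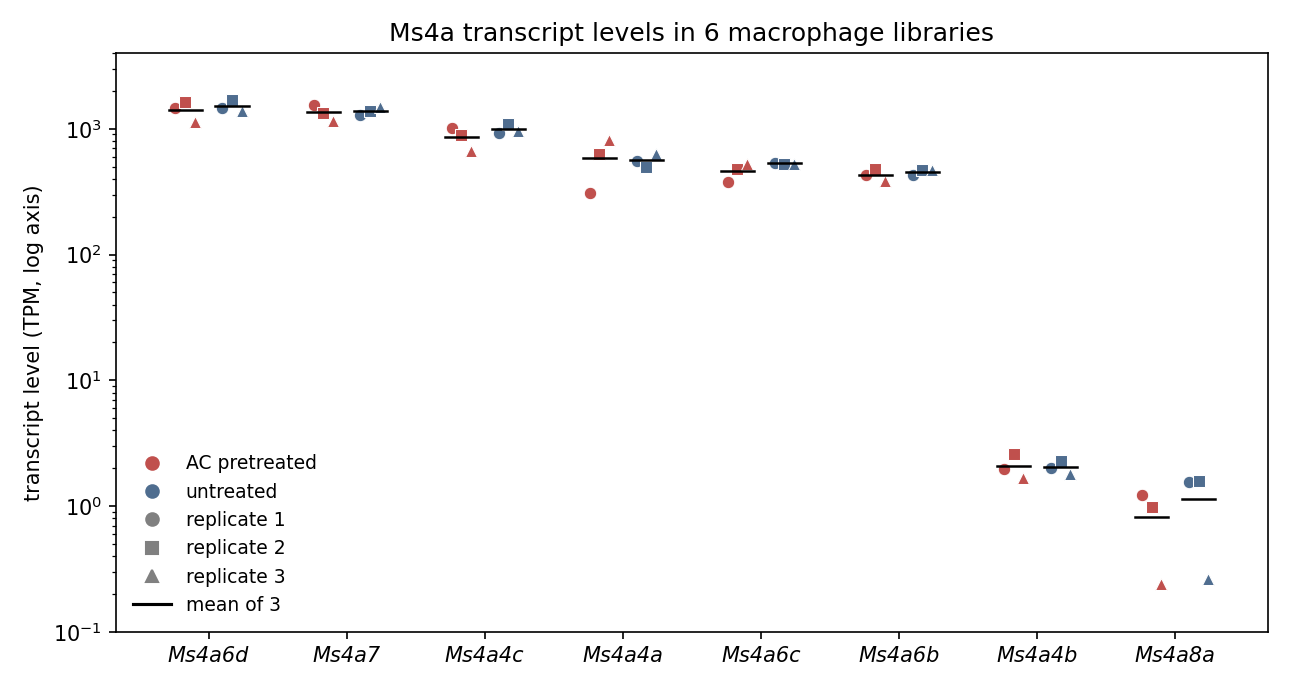
TPM (y axis, log scale) of the 8 Ms4a genes (x axis, by mean level) in 3 AC (red, left of each pair, marked AC pretreated) and 3 untreated libraries (blue). Symbols mark the replicate number and lines the mean of 3. The first 6 genes lie between 307 and 1699 TPM and the last 2 between 0.24 and 2.59 TPM.

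Between the groups no Ms4a gene passed the test. All 8 met the filter of at least 1 TPM in at least 3 libraries and entered the limma fit over all 12603 genes, and 0 had an adjusted p under 0.05 (Benjamini-Hochberg, 2-sided), with an adjusted p of 1 for each. The share called over all genes was 0%. At an unadjusted p under 0.05 there were 164 of 12603 genes (1.3%) and 0 of the 8; voom on the recovered reads called 0 genes, with 95 at an unadjusted p under 0.05. Log2 differences, AC minus untreated on log2(TPM + 1), lay between -0.22 (Ms4a4c and Ms4a6c) and 0.01 (Ms4a4b). Of the 8, 7 had a lower mean log2(TPM + 1) in AC libraries, 2 of which (Ms4a4a and Ms4a7) turned sign with median-of-ratios or TMM scaling, and the median was -0.10. Over all genes 70.6% had a lower mean log2(TPM + 1), with a median of -0.07, which those scalings brought to -0.008 and -0.016. In 7 of the 8 the 95% interval lay within 2-fold either way and in 5 within 1.5-fold, so larger changes are outside these intervals; for the low genes Ms4a4b and Ms4a8a this scale understates the change.

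**Figure D3:**
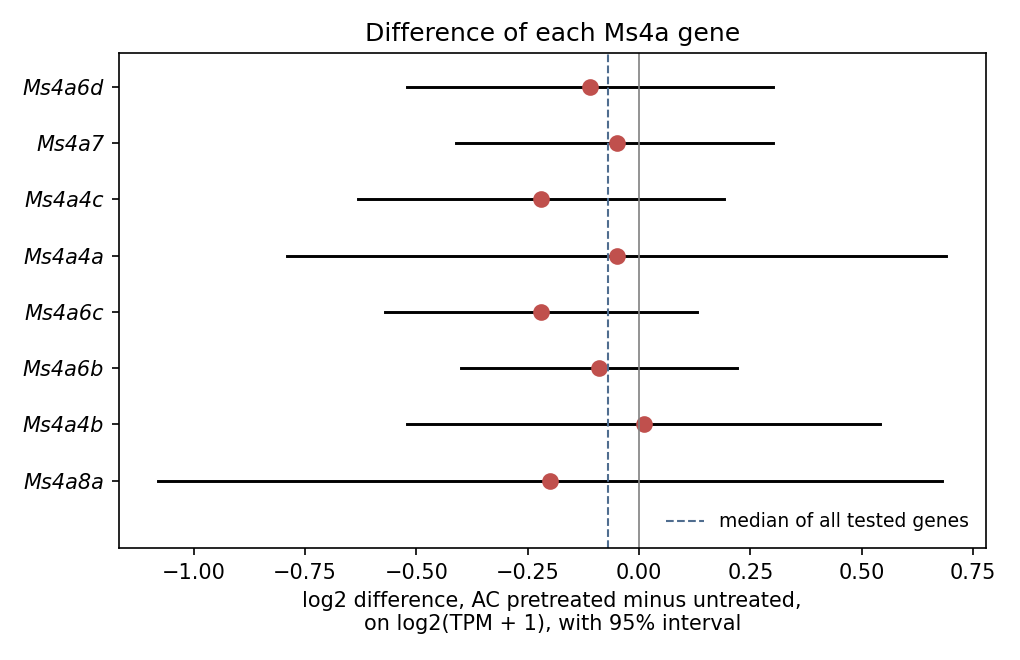
Log2 difference of AC (marked AC pretreated) minus untreated libraries on log2(TPM + 1) for the 8 Ms4a genes (y axis). Points on the x axis are differences and lines 95% intervals from limma (n = 3 each). All 8 intervals span 0, and that of Ms4a8a is the widest, from -1.08 to 0.68.

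On the TPM scale Ms4a6c was the 1 gene of 8 whose groups did not overlap, with every AC library lower. It stood at 375, 481 and 522 TPM in AC replicates 1, 2 and 3 and at 535, 529 and 526 TPM in untreated replicates 1, 2 and 3. The untreated libraries were within 1.02-fold of each other, and AC replicate 1 accounted for most of the distance. The means were 459 ± 75.7 TPM in AC and 530.3 ± 4.52 TPM in untreated libraries (SD, n = 3 each), a log2 difference of -0.22 ± 0.15 (SE, limma adjusted p = 1), and -0.08 without AC replicate 1. Over all tested genes 3.48% had every AC library below every untreated one and 0.936% the reverse, together 4.42%. The separation depended on the scaling: with median-of-ratios scaling the groups overlapped, at 436, 465 and 499 TPM in AC and 498, 525 and 531 TPM in untreated replicates 1, 2 and 3. They also overlapped without the 10 most abundant genes and in the values as deposited, and did not with TMM scaling.

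The close relatives Ms4a6b and Ms4a6d overlapped between the groups. Ms4a6d, reported in mouse macrophages as a partner of the complement receptor Vsig4, stood at 1469, 1638 and 1122 TPM in AC and at 1452, 1699 and 1374 TPM in untreated replicates 1, 2 and 3. Its means were 1409.9 ± 263 TPM in AC and 1508 ± 169.8 TPM in untreated libraries (SD, n = 3 each), a log2 difference of -0.11 ± 0.18 (limma adjusted p = 1). AC replicate 3 was the lowest library, and without it the difference was 0.05. Ms4a6b stood at 427, 478 and 385 TPM in AC and at 431, 474 and 466 TPM in untreated replicates 1, 2 and 3. It varied least of the 8, with a coefficient of variation of 8.11% over the 6 libraries; 85.8% of the 529 genes at 0.5 to 2 times its level varied more. Its log2 difference was -0.09 ± 0.13 (95% interval -0.40 to 0.22, limma adjusted p = 1). Coding identity was 80.6% between Ms4a6b and Ms4a6d, 75.8% between Ms4a6b and Ms4a6c and 69.7% between Ms4a6c and Ms4a6d, and shared words of 50 bases made up at most 5.85% of either gene in these pairs.

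Ms4a7, a marker of tissue-resident macrophages, for example at the borders of the mouse brain, had the most reads of the family, 35940 to 66821 per library. It stood at 1552, 1326 and 1160.5 TPM in AC and at 1285, 1385 and 1493 TPM in untreated replicates 1, 2 and 3, so the highest and the lowest library were both AC ones. Its log2 difference was -0.05 ± 0.16 (95% interval -0.41 to 0.30, limma adjusted p = 1), and the sign turned with median-of-ratios (0.02) and TMM (0.01) scaling. Ms4a4c, which is interferon-inducible in mouse cells, averaged 859 ± 176 TPM in AC and 989.8 ± 88.1 TPM in untreated libraries (SD, n = 3 each). Its log2 difference of -0.22 ± 0.18 (95% interval -0.63 to 0.19, limma adjusted p = 1) ranged from -0.35 without AC replicate 1 to -0.05 without AC replicate 3. AC replicate 3 was the lowest of the 6 for Ms4a4c.

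Ms4a4a, found on alternatively activated macrophages and known to associate with the fungal receptor Dectin-1, varied most among the 6 abundant genes, with a coefficient of variation of 29.4% over the libraries. It stood at 307, 626 and 813 TPM in AC and at 556, 495 and 635 TPM in untreated replicates 1, 2 and 3. AC replicate 1 was thus the lowest and AC replicate 3 the highest of all 6, a 2.65-fold range within AC against 1.28-fold within untreated libraries. The means, 582 ± 256 TPM in AC and 562 ± 70.1 TPM in untreated libraries (SD, n = 3 each), differed by -0.05 ± 0.32 on the log2 scale (95% interval -0.79 to 0.69, limma adjusted p = 1). The mean TPM was thus higher in AC libraries and the mean log2 value lower, and the log2 difference was 0.02 with median-of-ratios and 0.01 with TMM scaling. Without AC replicate 1 the log2 difference was 0.35 and without AC replicate 3 it was -0.35. Of 420 genes at 0.5 to 2 times its level, 3.57% had a higher coefficient of variation. The neighbouring genes Ms4a4a and Ms4a4c ran against each other: the Ms4a4a to Ms4a4c ratio, which does not depend on the scaling, was 0.303, 0.700 and 1.22 in AC and 0.600, 0.454 and 0.667 in untreated replicates 1, 2 and 3.

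The 6 abundant genes did not vary as one. AC replicate 3 was the lowest library for Ms4a6d, Ms4a7, Ms4a4c and Ms4a6b, and AC replicate 1 for Ms4a4a and Ms4a6c. Pearson r of log2(TPM + 1) over the 6 libraries, given as a description of libraries that share depth and scaling, was above 0 for 8 of 15 pairs. It ran from -0.76 (Ms4a4a and Ms4a7) to 0.86 (Ms4a6b and Ms4a6d), with 0.80 for Ms4a4a and Ms4a6c and 0.11 for Ms4a6b and Ms4a6c. In 7 of the 8 genes the SD of log2(TPM + 1) was larger among AC than among untreated libraries, with medians of 0.26 in AC and 0.12 in untreated libraries. The same held for 73.3% of all tested genes, with medians of 0.29 in AC and 0.16 in untreated libraries.

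**Figure D4:**
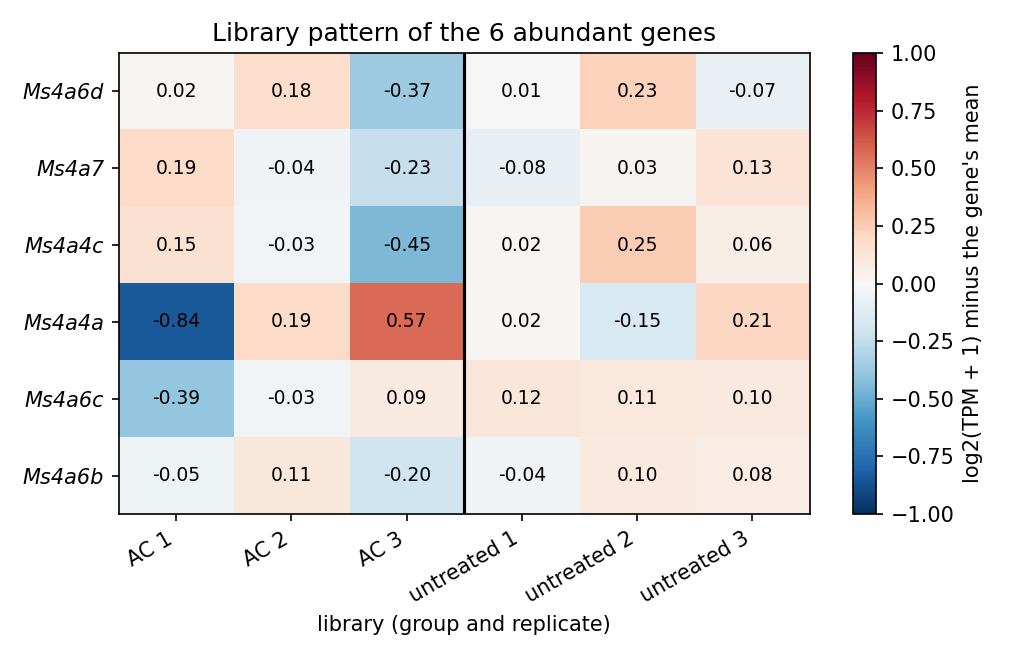
Log2(TPM + 1) minus the gene's mean of 6 libraries (colour and printed value) for the 6 abundant Ms4a genes (rows) in 3 AC and 3 untreated libraries (columns, parted by a black line). Ms4a4a runs from -0.84 in AC replicate 1 to 0.57 in AC replicate 3, while Ms4a4c stands at 0.15 and -0.45 in the same libraries.

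Summed over the 8 genes, the family took 5147, 5447 and 4672 TPM in AC and 5190, 5678 and 5449 TPM in untreated replicates 1, 2 and 3. That is 0.509 ± 0.0391% of all transcripts in AC and 0.544 ± 0.0244% in untreated libraries (SD, n = 3 each). The AC mean was 0.936 of the untreated mean, the groups overlapped, and no test was made on the sum. This ratio was 0.985 with median-of-ratios scaling and 0.98 with TMM scaling. It was 0.964 without the 10 most abundant genes and 0.871 in the values as deposited. In these bulk samples fewer cells of a type and less RNA per cell cannot be told apart. Within the sum, Ms4a6b kept a nearly even share, 8.30, 8.77 and 8.24% in AC and 8.31, 8.35 and 8.55% in untreated replicates 1, 2 and 3, whereas the Ms4a4a share was 5.97, 11.5 and 17.4% in AC and 10.7, 8.72 and 11.7% in untreated ones.

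Ms4a8a, known in mice from alternatively activated and tumour-associated macrophages, was near the detection limit, and low in replicate 3 of both groups. Its reads numbered 20, 12 and 3 in AC and 20, 31 and 3 in untreated replicates 1, 2 and 3. Levels were 1.23, 0.979 and 0.240 TPM in AC and 1.55, 1.59 and 0.262 TPM in untreated ones. Exact 95% Poisson intervals, which cover counting error only, reached 0.702 and 0.765 TPM in replicate 3 of AC and untreated cells. They began at 0.750 TPM in AC replicate 1 and at 0.947 and 1.08 TPM in untreated replicates 1 and 2, and at 0.506 TPM in AC replicate 2. The log2 difference between the groups was -0.20 ± 0.38 (95% interval -1.08 to 0.68, limma adjusted p = 1), and ranged from -0.55 to 0.05 in the 3 fits without 1 library in which it passed the filter. The 2 libraries with few Ms4a8a reads are those in which all 17 placental markers were at 0; the placental sums did not follow the Ms4a8a reads among the other 4, with 159 TPM and 12 reads in AC replicate 2. Placental markers were not alone in this. Granulocyte progenitor and neutrophil markers summed to 41, 25.1 and 23.7 TPM in AC and to 52.2, 30.7 and 21.6 TPM in untreated replicates 1, 2 and 3. Sums of the monocyte, dendritic cell, fibroblast and erythroid lists were also lowest in replicate 3 of each group. That of the T cell and thymocyte list was highest there, and the remaining marker lists showed neither in both groups. The part of any of these transcripts in the Ms4a8a pattern was not tested.

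**Figure D5:**
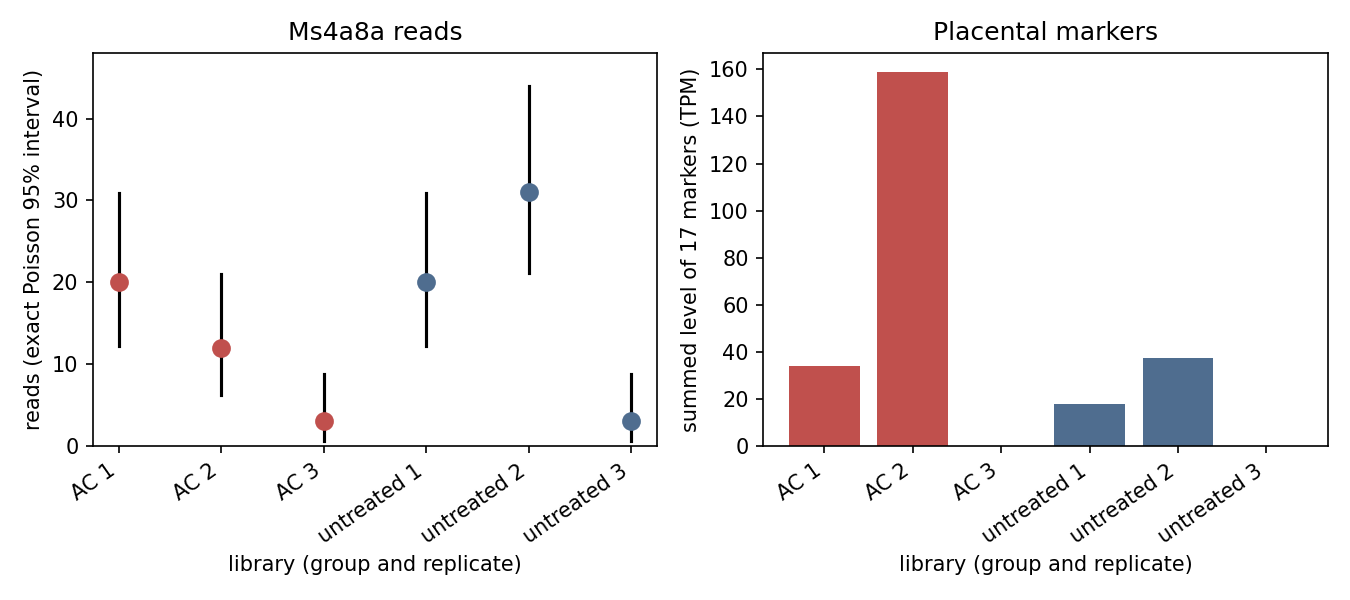
Left, Ms4a8a reads (y axis; points, with exact Poisson 95% intervals) in 3 AC (red) and 3 untreated (blue) libraries; right, the summed TPM of 17 placental markers in the same libraries (bars). Replicate 3 of both groups has 3 Ms4a8a reads and 0 TPM of placental markers.

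The log2 differences of the other members are given apart for replicates 1 and 2 and for replicate 3. These sets differ in more than placental transcripts. Within replicates 1 and 2 of both groups, and for replicate 3 alone, log2 differences were -0.26 and 0.36 for Ms4a4a, -0.08 and -0.51 for Ms4a4c, -0.32 and -0.01 for Ms4a6c, and 0.10 and -0.36 for Ms4a7. They were 0.00 and -0.27 for Ms4a6b, -0.02 and -0.29 for Ms4a6d, and 0.05 and -0.07 for Ms4a4b. The first value of each pair has 2 libraries per group and the second 1, with no test. The difference between these sets was not tested.

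Among the 13 other Ms4a genes, 5 were at 0 in every library, and Ms4a14 was the 1 that passed the filter. It stood at 115, 198 and 173 TPM in AC and at 205, 184 and 115 TPM in untreated replicates 1, 2 and 3, a log2 difference of -0.05 ± 0.27 (95% interval -0.65 to 0.56, limma adjusted p = 1). Ms4a2 was under the filter and is named after its values were seen: it had 7, 5 and 4 reads in AC and 12, 20 and 9 in untreated replicates 1, 2 and 3, with every AC library lower, and was not tested. Among tested genes, 3.48% had every AC library lower, but that set leaves out genes under the filter, for which no share was computed. Of the 9 mast cell and basophil markers, which include Ms4a2, 3 were at 0 in every library and 3 were tested, with log2 differences of 0.19 for Cpa3, 0.27 for Kit and -0.13 for Mcpt8 (limma adjusted p = 1 each). The related four-span genes Tmem176a and Tmem176b averaged 31.5 ± 5.40 and 137 ± 20.8 TPM in AC and 30.2 ± 4.47 and 137 ± 15.7 TPM in untreated libraries (SD, n = 3 each). Of 7 reported partners that were listed, Vsig4 not among them, 6 were tested and 0 called, 2 with higher and 4 with lower mean log2(TPM + 1) in AC libraries. Clec7a (Dectin-1) averaged 379 ± 82.0 TPM in AC and 344 ± 116 TPM in untreated libraries, Syk, its downstream kinase, 129 ± 36.0 and 129 ± 10.2 TPM in AC and untreated libraries, and Trem2, a lipid-sensing receptor, 752 ± 116 TPM in AC and 751 ± 60 TPM in untreated libraries (SD, n = 3 each). Tyrobp, the adaptor of Trem2, differed by -0.09 ± 0.19, the shared receptor gamma chain Fcer1g by -0.09 ± 0.25 and Kit, a mast cell growth factor receptor near 1 TPM, by 0.27 ± 0.34. Tnfrsf18 (GITR), a partner of Ms4a4b in mouse T cells, was under the filter, at up to 1.73 TPM. Of 18 listed genes near the cluster on chromosome 19, 10 were tested and 0 called, 2 with higher and 8 with lower mean log2(TPM + 1) in AC libraries and a median log2 difference of -0.08. For comparison with the partners and these neighbours, 70.6% of all tested genes had a lower mean log2(TPM + 1) in AC libraries.

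The genes most like each member over the 6 libraries are given as a description, by Pearson r of log2(TPM + 1) among 8485 genes with a mean of at least 5 TPM. For Ms4a4a they were Appl1 and Zeb2 (r of 0.999 each), and 580 of the 8485 genes had an r over 0.95 with it. For Ms4a4c they were Slfn2 and Phf11b (0.992 and 0.988), for Ms4a6c Zfp942 and Parp9 (0.994 and 0.993), and for Ms4a7 Mtln and Zcchc17 (0.996 and 0.995). For Ms4a6b they were Dstn and Ogfrl1 (0.986 and 0.985), for Ms4a6d Cryzl1 and Phf11d (0.986 and 0.977), for Ms4a4b Mtch2 and Cops8 (0.979 and 0.973), and for Ms4a8a Mif4gd and Snrpa (0.999 and 0.997). Genes with an r over 0.95 numbered 21 for Ms4a4c, 103 for Ms4a6c, 40 for Ms4a7 and 18 for Ms4a6b. They numbered 18 for Ms4a6d, 9 for Ms4a4b and 61 for Ms4a8a. Zeb2, a transcription factor gene, shows the Ms4a4a pattern, at 33.2, 60.6 and 72.0 TPM in AC and 53.1, 48.9 and 60.1 TPM in untreated replicates 1, 2 and 3.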

How the data were processed

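Poly(A) RNA of 6 mouse BMDM libraries was sequenced from both ends on an Illumina instrument, per the labels' protocols. Tools listed in the submitters' processing notes, with no role or order, are STAR 2.7.10a, featureCounts 2.0.3 and Subread, and the build is mm10. Annotation, strand setting and the treatment of reads fitting several genes are not stated there, so near-identical or overlapping genes are uncertain. The authors deposited 1 signal value per gene and library, named TPM, in columns that sum to 54732 to 92831. Multiplied by the merged exon length (GENCODE M21) and divided by 8.57, the deposited signal came to whole reads, within 0.02 reads in each library, for 98.5% of genes (23473 of the 23829 that had reads and a matched length). It is thus a count per base, not scaled for depth. Each column was rescaled to 1000000. The test was limma 3.58.1 under R 4.3.3 (eBayes with trend, threshold 0.05) on log2(TPM + 1), over genes reaching 1 TPM in 3 or more libraries. Other steps used Python 3.11.15, pandas 2.3.3, scipy 1.17.1, biopython 1.88 and matplotlib 3.10.9. The fit was also run on simulated reads whose spread beyond counting error was set equal in all genes and libraries. The larger spread among AC libraries was not simulated. The simulation therefore cannot show how often the fit finds or misses changes in these data, and no result here rests on it. Promoter bases are RefSeq's (GRCm38.p6). All replicate pairs differed beyond sampling noise (chi-square per degree of freedom 19.5 to 136). The members and lists were chosen with earlier results of these data known. Named genes are the members, other Ms4a genes and partners that passed the filter, Tmem176a, Tmem176b and the 2 most alike genes per member; other genes named were chosen after their values were seen.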

Additional observations from a re-analysis of the deposited data

How the results depend on the processing

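Over all genes the count called was 0 in the fit as reported and in 16 of 18 alternatives; it was 1 for limma without the trend and 12 for the values as deposited, in which depth differences remain. With the replicate block it was 0 (225 genes at an unadjusted p under 0.05, against 164). With each gene's group mean subtracted, same-numbered AC and untreated libraries had correlations of -0.06, 0.01 and 0.17 over 12603 genes. Differently numbered ones ran from -0.34 to 0.34. The block was therefore not used elsewhere, although replicate 3 of both groups lacks the placental transcripts that the other libraries hold. On leaving out each library in turn the count was 0 to 0. None of the Ms4a genes tested was called under any of these 18. Of 147 alternative values of single members, 127 kept their sign and, where tested, their side of the threshold, 16 turned sign and 4 of replicate 3 alone kept their sign and moved by more than 1 SD. Sign turns outside the leaving out of libraries were those of Ms4a4a and Ms4a7 with median-of-ratios scaling (0.02 and 0.02) and TMM scaling (0.01 and 0.01), Ms4a7 in replicates 1 and 2 only (0.10), Ms4a4a and Ms4a4b in replicate 3 alone (0.36 and -0.07) and Ms4a4b as deposited (-0.05). On leaving out 1 library, ranges that crossed 0 were -0.35 to 0.35 for Ms4a4a, -0.11 to 0.11 for Ms4a4b, -0.23 to 0.05 for Ms4a6d, -0.16 to 0.05 for Ms4a7 and -0.55 to 0.05 for Ms4a8a; those of Ms4a4c, Ms4a6b and Ms4a6c stayed below 0 (-0.35 to -0.05, -0.17 to -0.02 and -0.32 to -0.08). The summed family ratio of AC over untreated stayed between 0.858 and 0.985. With transcript lengths in place of merged exons, an alternative chosen after seeing the data (as were the overlap of groups under other scalings and the Ms4a4c to Ms4a4b ratio by transcript length), 5 of the 8 members changed place in the order of levels, by construction through length alone. A quasi-likelihood test on recovered reads was not run, and voom was the test made on those reads. The cause of these changes was not tested. Depth limits Ms4a8a (3 to 31 reads) and Ms4a4b (101 to 219 reads).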
